A study of Mus musculus with 48 samples.

Results

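The Fos and Jun family was followed in punches of the right amygdala (AMG) of 48 female mice by RNA sequencing. Its 7 members, Fos, Fosb, Fosl1, Fosl2, Jun, Junb and Jund, were chosen by gene symbol among the 52636 genes of the deposited table, and all 7 were found there by Ensembl identifier. The mice, 8 to 11 weeks old, came from the line C57BL/6NTac-Brd1tm1.2Arte/AborgMmucd, which the labels give as C57BL/6NTac-Brd1 for every sample, and were either wild type (WT) or Brd1+/-, in which a targeted deletion leaves a single working copy of Brd1, the gene of a chromatin reader protein. Mice of both genotypes were injected subcutaneously with saline (vehicle), 10 mg/kg imipramine (IMN), a tricyclic antidepressant, or 5 mg/kg fluoxetine (FLX), a serotonin reuptake inhibitor, which gave 6 groups of 8 libraries. All mice, vehicle mice included, had been through tail suspension on the first test day and open field and forced swim tests on the next, and brains were taken about an hour after the swim. No library of mice kept from these tests was analysed here. Values are TPM, an abundance in which reads are divided by gene length and every library is then scaled to the same sum.

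Fos and Jun proteins pair through leucine zippers to form activator protein 1 (AP-1), a transcription factor that binds short DNA motifs. Jun proteins can pair with each other, whereas Fos proteins need a Jun partner. Several of the genes are immediate-early genes: in neurons their transcripts rise within minutes of synaptic activity or stress, driven by the transcription factors CREB, serum response factor (SRF) and Elk at sites near the gene start, and Fos in particular is read as a mark of recently active neurons.

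The 250 bases before the RefSeq start of Fos, Fosb, Fosl2 and Jun are shown here because these members rose and fell together between libraries, as described further on. The coordinates are chr12:85473640-85473889 (plus strand) for Fos, chr7:19310046-19310295 (minus) for Fosb, chr5:32136222-32136471 (plus) for Fosl2 and chr4:95052223-95052472 (minus) for Jun, in GRCm38.p6. Each runs 5′ to 3′ in the direction of the gene, and capitals mark TGACG, the half-site of the cAMP response element that CREB binds, TGACNTCA, an 8-base CRE-like site, or TATAAA, the TATA box.
Fos: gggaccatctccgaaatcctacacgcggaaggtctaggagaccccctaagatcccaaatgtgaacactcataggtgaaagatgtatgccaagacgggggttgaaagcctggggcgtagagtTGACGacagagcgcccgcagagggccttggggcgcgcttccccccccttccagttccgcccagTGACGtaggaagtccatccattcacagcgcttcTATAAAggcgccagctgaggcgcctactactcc
Fosb: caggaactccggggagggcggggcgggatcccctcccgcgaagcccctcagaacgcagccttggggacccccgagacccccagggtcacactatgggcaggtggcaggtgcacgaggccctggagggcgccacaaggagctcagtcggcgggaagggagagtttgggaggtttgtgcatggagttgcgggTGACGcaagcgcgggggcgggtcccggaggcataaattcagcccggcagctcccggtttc
Fosl2: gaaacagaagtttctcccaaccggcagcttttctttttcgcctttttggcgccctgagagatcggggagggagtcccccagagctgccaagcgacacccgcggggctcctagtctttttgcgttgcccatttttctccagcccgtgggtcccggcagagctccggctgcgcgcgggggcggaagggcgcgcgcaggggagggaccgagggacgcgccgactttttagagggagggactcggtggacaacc
Jun: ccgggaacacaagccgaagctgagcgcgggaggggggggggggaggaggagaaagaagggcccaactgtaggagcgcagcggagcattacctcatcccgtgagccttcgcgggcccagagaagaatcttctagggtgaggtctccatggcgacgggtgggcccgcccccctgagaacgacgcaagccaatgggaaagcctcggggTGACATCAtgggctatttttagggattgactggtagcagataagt
All motifs were searched on both strands. TGACG stood 129 and 66 bases before the start of Fos and 60 bases before that of Fosb, and 17.7% of all 32817 RefSeq promoters hold it in the same window. Jun held no TGACG but TGACNTCA, which 7.49% of promoters hold and which overlaps TGACG where N is G. Fosl2 held neither. TATAAA was found 33 bases before the start of Fos, and in 12.4% of all promoters. The promoter of Junb, on the minus strand at chr8:84978749-84978998, had 1 TGACG, 106 bases before its start. TGANTCA, the motif that AP-1 itself binds, and the CArG box that SRF binds were not in these letters in any of the 6 promoters at hand (6.75% and 1.47% of all promoters). A match is a description of the sequence and was not tied to binding here. The Fosl2 window lies inside the gene as GENCODE draws it, since RefSeq starts it further downstream. The table held no promoter for Fosl1.

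Jund was the most abundant member. Its median over the 48 libraries was 73.7 TPM, followed by Jun with 34.9, Fos with 28.1, Fosl2 with 14.3, Fosb with 10.8 and Fosl1 with 5.88 TPM. The order held in most libraries: Jund exceeded Jun in 46 of 48, Jun exceeded Fos in 37, Fosl2 exceeded Fosb in 42 and Fosb exceeded Fosl1 in 42. Junb has no place in this order because it was listed at 0 in 23 libraries and stood at 18.4 to 107 TPM in the other 25.

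Members differed in how far libraries of one group lay apart. For each gene the standard deviation of log2(TPM + 0.1) within groups was computed, and it was 1.04 for Fos, larger than in 86.7% of the 19222 genes with a mean of at least 1 TPM. It was 0.85 for Fosb, 0.62 for Fosl2 and 0.59 for Jun, larger than in 82.2%, 72.3% and 70.7% of genes. Fosl1, with 0.30, and Jund, with 0.20, were steadier than most genes, at the 36.7 and 15.5 percentiles. Between the lowest and the highest of the 48 libraries Fos ranged 21.2-fold, Fosl2 9.33-fold, Fosb 8.68-fold, Jun 5.44-fold, Fosl1 2.59-fold and Jund 1.92-fold.

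The punches did not hold the same tissue. Brd1, the targeted gene, had a median of 33.1 to 37.9 TPM in the WT groups and 22.8 to 26.2 TPM in the Brd1+/- groups. The 8 markers of striatal projection neurons, among them the dopamine receptor genes Drd1 and Drd2, summed to between 131 and 8115 TPM, those of oligodendrocytes to between 718 and 17992 TPM. No striatal or oligodendrocyte marker was at 0 throughout a group. Of 6 amygdala markers, Prkcd, Calcrl, Rspo2 and Sst were above 0 in every library, whereas Crh and Tac2 were listed at 0 in some. The striatal sum was over 5000 TPM in 7 libraries, 2 each of WT IMN and Brd1+/- IMN, 1 each of WT vehicle, Brd1+/- vehicle and Brd1+/- FLX and 0 of WT FLX, and at most 3864 TPM in the other 41. This split was made after the values were seen. The sample codes of vehicle mice and of drug mice did not overlap, so that drug and whatever the codes stand for cannot be told apart.

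Fos, the founding member and the standard marker of activated neurons, was lowest in exactly the 7 libraries rich in striatal markers. It stood at 2.74, 4.20, 4.40, 4.74, 5.79, 7.38 and 13.1 TPM there and at 16.1 to 58.1 TPM in the other 41. Jun, the main partner of Fos, was also lowest in these 7, with 14.6 to 18.9 TPM against 23.2 to 79.4 TPM in the 41. Neither gene had values of one set inside the range of the other. Fosb (3.54 to 10.7 against 3.36 to 29.2 TPM), Fosl2 (5.53 to 11.3 against 7.06 to 51.6 TPM) and Jund (60.6 to 69.98 against 53.9 to 104 TPM) lay in the lower part of the range, whereas Fosl1 (4.18 to 7.80 against 3.54 to 9.16 TPM) was spread over it. Other marker sums also differed between the sets: the amygdala markers stood at 397 to 600 TPM in the 7 libraries and 281 to 1780 TPM in the 41, those of astrocytes at a median of 429 and 686 TPM, and those of hypothalamus and thalamus at 3.04 to 7.52 and 15.9 to 620 TPM. The part of each in the values of the members was not tested. In bulk tissue, fewer cells of a type and less RNA per cell cannot be told apart.

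**Figure D1:**
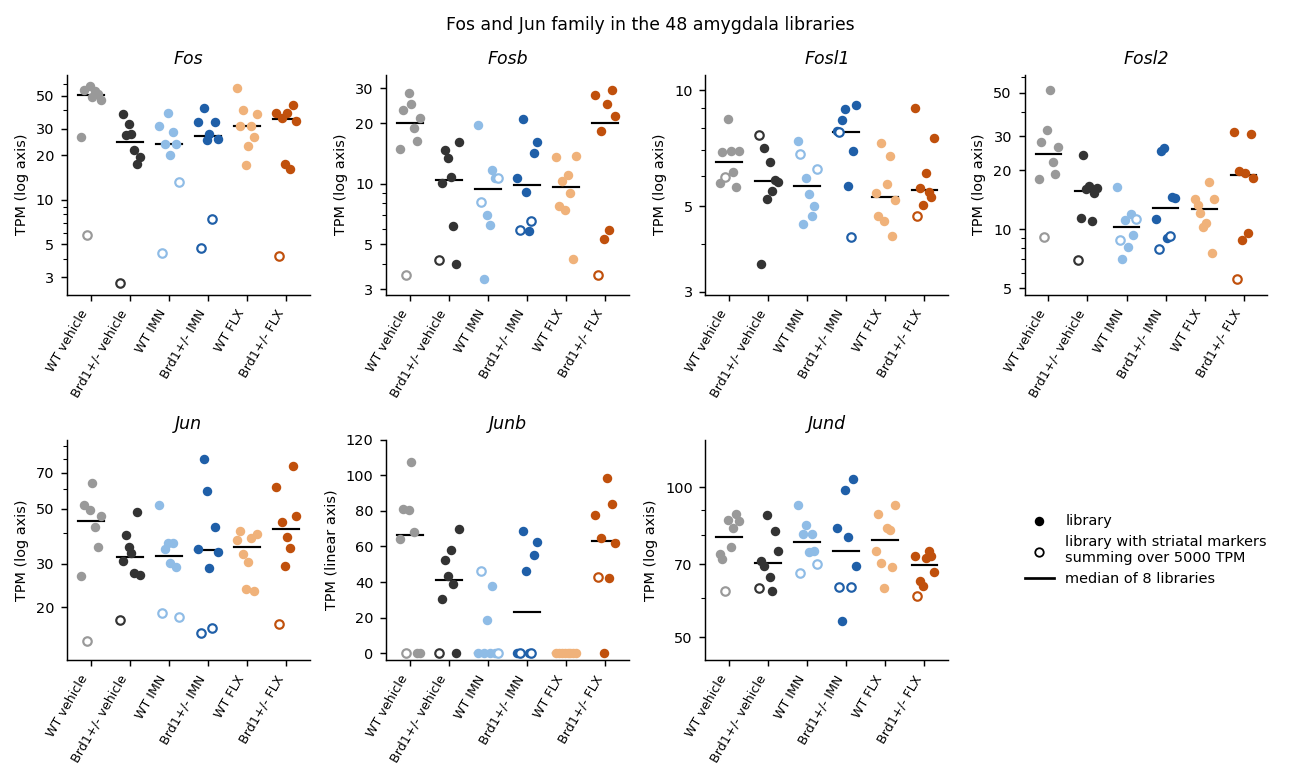
TPM of each member in every library, by group, on a log axis except for Junb; bars are medians of 8 libraries and open circles the 7 libraries with striatal markers over 5000 TPM. The open circles are the 7 lowest points of Fos and of Jun, and all 8 WT FLX libraries list Junb at 0.

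To ask which members vary together, log2(TPM + 0.1) was centred within groups and correlated over the 48 libraries. The family of tests held 15 member pairs and 54 pairs of a member and a marker list, 69 in all, without Junb, whose libraries fell into separate sets. Of the 15 member pairs 12 were correlated, all positively (permutation within groups, Benjamini-Hochberg adjusted p under 0.05). The share of all gene pairs that would pass was not computed, so this count has no background to be set against. Many genes outside the family had a higher r with Fos than any member had, as given further on. The tightest was Fosl2, a slower member of the family, with Jun: r was 0.85 and Spearman's rho 0.82 (permutation p = 1e-05, the smallest that 100000 resamples can give, adjusted p = 9.86e-05), and r was 0.43 to 0.96 within the 6 groups. Fosb with Fosl2 reached r = 0.84 and rho = 0.83, with the same permutation p and adjusted p, and 0.67 to 0.97 within groups. Fos with Jun had r = 0.82 and rho = 0.68 at the same permutation p, and r was 0.68 to 0.91 within groups. All 3 pairs were positive in each of the 6 groups. Leaving out the 2 libraries farthest from the median of the first gene left r at 0.80, 0.78 and 0.79.

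Once the 7 libraries with high striatal markers were left out, these pairs parted. Fosl2 with Jun stayed at r = 0.85 and Fosb with Fosl2 was 0.74, but Fos with Jun was 0.55, Fos with Fosl2 0.53 (0.70 in all libraries) and Fos with Fosb 0.64 (0.69 in all). Jund, a constitutively expressed member, had r = 0.49 with Fos and 0.49 with Jun over all libraries (permutation, adjusted p = 0.00215 and 0.00624). Without the 7 libraries these were 0.12 and 0.17, and after median-ratio scaling of all 48 libraries they were 0.09 and 0.12. Fosl1, which encodes Fra-1, went with Fosl2 (r = 0.49, rho = 0.52, permutation adjusted p = 0.00298) and, without the 7 libraries, with r = 0.62. Its r with Fos was 0.11 and turned to -0.16 after median-ratio scaling.

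**Figure D2:**
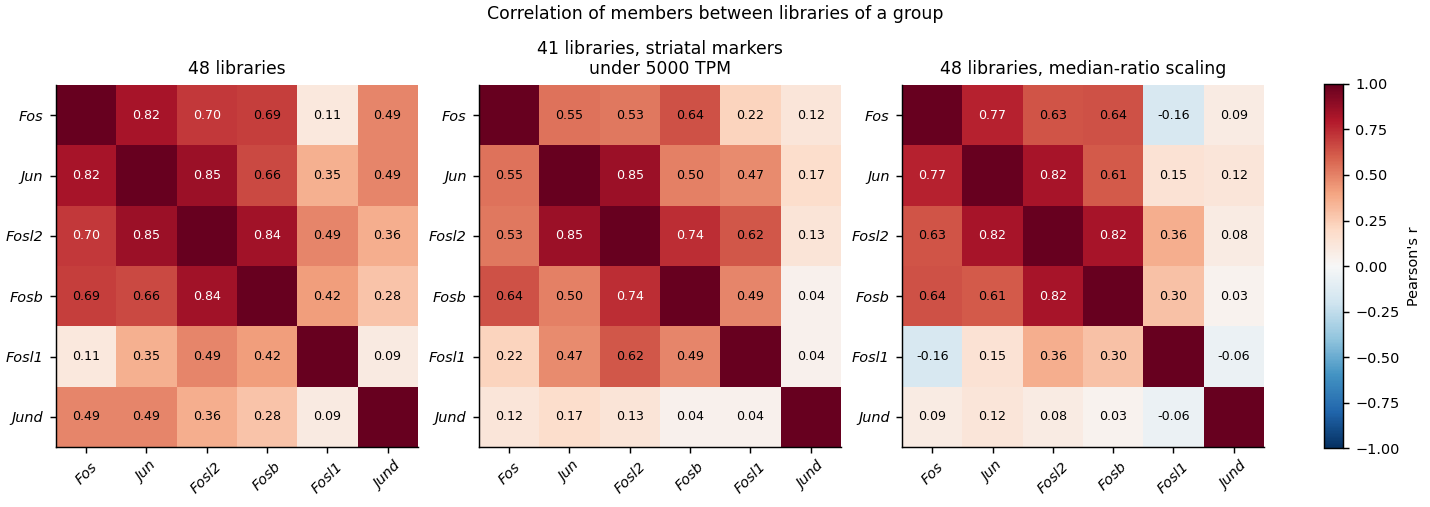
Pearson's r of group-centred log2(TPM + 0.1) for 6 members, in all 48 libraries, in the 41 libraries with striatal markers under 5000 TPM and in all libraries after median-ratio scaling. Fosl2 with Jun is at 0.85, 0.85 and 0.82, whereas Jund with Jun is at 0.49, 0.17 and 0.12.

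Of the 54 pairs of a member and a marker list 24 were correlated (permutation, adjusted p under 0.05), and not all are named here. The share over all genes was not computed. Among the marker lists, striatal markers ran against Jun (r = -0.82, rho = -0.75) and Fos (r = -0.77, rho = -0.63), both with a permutation p of 1e-05 and an adjusted p of 9.86e-05. Without the 2 libraries farthest from the median of the member, r was -0.78 and -0.72. Within the 6 groups r was -0.91 to -0.56 for Jun and -0.87 to -0.65 for Fos, and in the 41 libraries with low striatal markers it was -0.60 and -0.45. Fosb had r = -0.34 with the striatal list (permutation, adjusted p = 0.0509) and 0.03 in the 41 libraries. Against oligodendrocyte markers, Fosb stood at r = -0.58 and rho = -0.67 (permutation, adjusted p = 0.00172) and Fosl2 at r = -0.48 and rho = -0.55 (permutation, adjusted p = 0.00900). In the 41 libraries these were -0.81 and -0.72, and Fos, at -0.10 in all libraries, was at -0.64. Astrocyte markers had r = 0.38 with Fos over all libraries (rho = 0.15, permutation adjusted p = 0.0323), but -0.48 in the 41. Neuron markers were not called with any member over all libraries. In the 41 they had r = 0.49 with Fos, 0.58 with Fosb, 0.50 with Fosl2 and 0.47 with Jun, and 0.25 with Fosl1 and -0.03 with Jund. The sum of amygdala markers had r = 0.74 with Fos over all libraries (rho = 0.33, permutation adjusted p = 0.000153), but 0.01 in the 41 libraries, so that this relation rested on the 7. Markers of hypothalamus and thalamus had r = 0.63 with Fos (rho = 0.56, permutation adjusted p = 9.86e-05), and 0.34 in the 41 libraries. Microglia markers had r = -0.47 with Fosb and -0.46 with Fosl2 (permutation, adjusted p = 0.00199 and 0.000878).

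**Figure D3:**
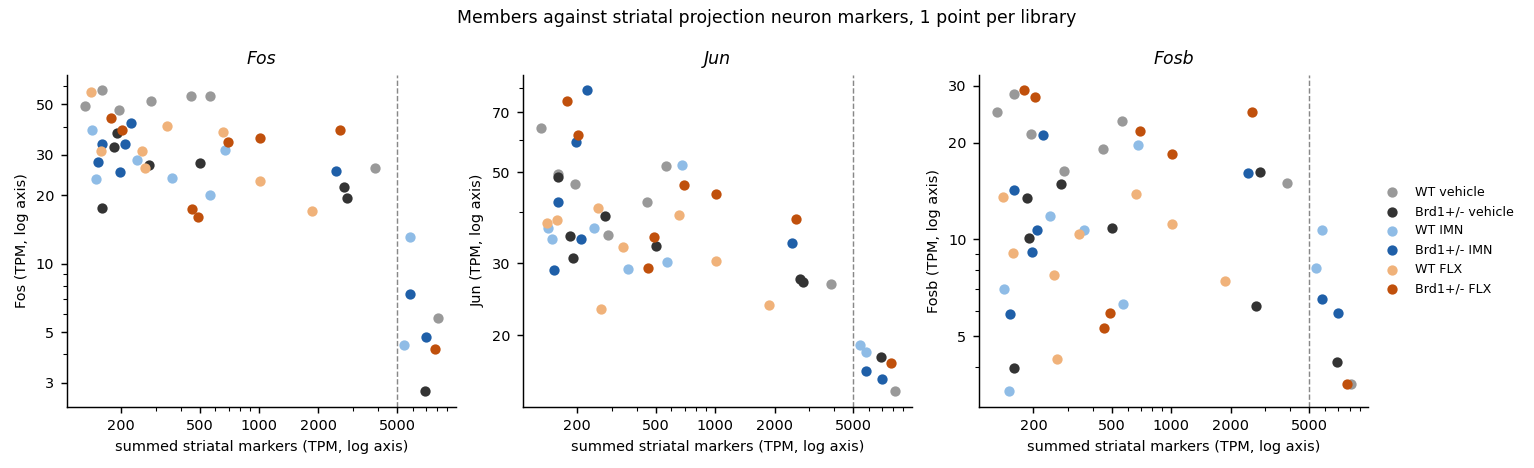
Fos, Jun and Fosb (TPM, log axis) against the summed TPM of 8 striatal projection neuron markers (log axis), 1 point per library, coloured by group; the dashed line marks 5000 TPM. Right of the line Fos is at or below 13.1 TPM and Jun at or below 18.9 TPM.

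The genes outside the family that followed each member most closely were taken from the 19215 with a mean of at least 1 TPM. For Fos they included Zdhhc5, a palmitoyltransferase (r = 0.93), and Polr3gl, a subunit of RNA polymerase III (0.92), but without the 7 libraries r of these was 0.65 and 0.67. For Fosb they were 1700016P03Rik, the host transcript of the activity-induced miRNAs miR-212 and miR-132 (r = 0.90), Islr2 (0.89) and Cckbr, a cholecystokinin receptor (0.86). With members counted in the ranking, Fosl2 held rank 5 for Fosb, Fos 396, Jun 605, Fosl1 3861 and Jund 6558. For Fos, Jun held rank 298, Fosl2 1633, Fosb 1828, Jund 5218 and Fosl1 12110. Members ranked from 80 (Fosl2) to 7123 (Fosl1) for Jun and from 18 (Jun) to 5282 (Jund) for Fosl2. Fosl2 was followed by the kinases Dyrk3 (0.90) and Dyrk2 (0.88) and by Chrd, the bone morphogenetic protein antagonist chordin (0.89). Jun was followed by Syt17 (0.91), Napepld, an enzyme of endocannabinoid synthesis (0.91), and Mtfp1 (0.90). For Jund they were Trir (0.79), Map7d1 (0.77) and Safb (0.76), and for Fosl1 no gene exceeded r = 0.63, that of the amino acid transporter Slc7a8, ahead of Tbata (0.61) and Fam131a (0.60). These r are descriptions, chosen as the highest of all.

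Whether Brd1 haploinsufficiency changed the family was asked first in vehicle mice. Fos ranged from 5.79 to 58.1 TPM in WT vehicle with a median of 50.4, and from 2.74 to 37.6 TPM in Brd1+/- vehicle with a median of 24.4. Of the 8 WT libraries 6 were at 47.3 TPM or more, above every Brd1+/- library, but the groups overlapped through the other 2. The log2 difference was -0.92 ± 0.53 (SE, n = 8 per group), with limma's unadjusted p = 0.101 and adjusted p = 0.691. Fosb, whose splice form ΔFosB builds up under chronic stress but is not told apart at gene level, had medians of 20.1 TPM (3.54 to 28.3) in WT vehicle and 10.5 TPM (3.99 to 16.2) in Brd1+/- vehicle. Its difference was -0.90 ± 0.40 (limma, unadjusted p = 0.0397, adjusted p = 0.542). Fosl2, which encodes Fra-2, had medians of 24.2 (9.15 to 51.6) and 15.7 TPM (6.93 to 24.0) and differed by -0.74 ± 0.30 (limma, unadjusted p = 0.0233, adjusted p = 0.475). Jun differed by -0.29 ± 0.26, Fosl1 by -0.18 ± 0.15 and Jund by -0.12 ± 0.09, none with an unadjusted p under 0.05. In the vehicle comparison 0 of 7 members were called by limma at an adjusted p under 0.05, where 0.708% of the 24279 genes tested were, and 2 passed an unadjusted p under 0.05, where 8.52% of all genes did.

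Single libraries in each group moved the estimates. Without Brd1+/- vehicle replicate 1, where Fos was at 2.74 TPM, the log2 difference of Fos was -0.53 (limma, adjusted p = 0.753). Without WT vehicle replicate 3, where Fos was at 5.79 TPM, Fosb was at -1.22 and Fosl2 at -0.93 (limma, adjusted p = 0.116 and 0.181). Both libraries belong to the 7 with high striatal markers. Without both the difference of Fos was -0.90 ± 0.20 (limma, unadjusted p = 0.000367, adjusted p = 0.0809), Fosb was at -1.07 ± 0.28 (adjusted p = 0.19998) and Fosl2 at -0.79 ± 0.22 (adjusted p = 0.266). Oligodendrocyte markers moved along with the genotype, with a median sum of 2066 TPM in WT vehicle against 5886 TPM in Brd1+/- vehicle. With the striatal, oligodendrocyte and choroid plexus scores as covariates, Fosb was at -0.57 and Fos at -1.10 (limma, adjusted p = 0.945 and 0.671).

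In IMN mice the genotypes lay closer. Fos had a median of 23.7 TPM (4.40 to 38.5) in WT IMN and 26.7 TPM (4.74 to 41.6) in Brd1+/- IMN, a difference of 0.05 ± 0.49. The 95% interval of that difference ran from -0.98 to 1.08 and so left room for a change in either direction. Fosl1 was the member with the smallest p, with medians of 5.65 and 7.81 TPM and a difference of 0.33 ± 0.17 (limma, unadjusted p = 0.0657, adjusted p = 1.00). By limma, 0 of 6 members tested were called (0.017% of all 23581 genes) and 0 passed an unadjusted p under 0.05 (3.58% of all genes).

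In FLX mice Fos had a median of 31.2 TPM (17.1 to 56.6) in WT and 34.7 TPM (4.20 to 43.5) in Brd1+/-, and the log2 difference was -0.40 ± 0.41 (limma, adjusted p = 0.670). Fosb had medians of 9.71 TPM (4.26 to 13.8) and 20.04 TPM (3.54 to 29.2). Of the Brd1+/- FLX libraries 5 were above every WT FLX library and the other 3 at 5.89 TPM or less, so that the difference of 0.53 ± 0.44 was within the spread (limma, adjusted p = 0.595). Jund, at medians of 78.3 and 69.7 TPM, differed by -0.18 ± 0.08 in log2 and was the only member of the 6 tested with an unadjusted p under 0.05 (limma, unadjusted p = 0.0480, adjusted p = 0.295). After median-ratio scaling Jund was at -0.10 and after quantile normalization at -0.12 (limma, adjusted p = 0.492 and 0.422), beside a median of -0.06 for all genes without such scaling. Without Brd1+/- FLX replicate 2, at 4.20 TPM, Fos was at -0.05 (limma, adjusted p = 0.948) and Fosb at 0.79 (adjusted p = 0.329). Over the 48 libraries Jund had r = 0.56 with markers of hypothalamus and thalamus (rho = 0.56, permutation adjusted p = 0.00149), Fos 0.63 and Jun 0.44. These markers summed to a median of 275 TPM in WT FLX and 45.8 TPM in Brd1+/- FLX. All 6 of them tested were lower in Brd1+/- FLX at an unadjusted p under 0.05, and Lhx5 and Fezf1 were called (limma, adjusted p = 0.0284 and 0.0322). Their part in the values of the members was not tested. The calls stood at 0 of 6 members tested by limma, against 1.54% of all genes, and at 1 unadjusted, against 16.6%.

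Imipramine in WT mice went with lower values of Fosl2. Its 8 WT IMN libraries lay between 7.06 and 16.4 TPM (median 10.3), and 7 of the 8 WT vehicle libraries were at 18.1 TPM or more. The remaining WT vehicle library, replicate 3, was at 9.15 TPM and is one of the striatal-rich 7. The log2 difference was -1.18 ± 0.27, or 0.441-fold, with a 95% interval of -1.75 to -0.61 (limma, unadjusted p = 0.000453, adjusted p = 0.669), and by p it held rank 16 of the 23644 genes tested. Fosb differed by -0.93 ± 0.39 (limma, unadjusted p = 0.0313, adjusted p = 0.970) and Fos by -0.89 ± 0.49 (unadjusted p = 0.0860, adjusted p = 0.970). Jun, at -0.33 ± 0.28, Fosl1, at -0.20 ± 0.13, and Jund, at -0.003 ± 0.086, were nearer to 0. By limma 0 of 7 members were called, as were 0% of all 23644 genes, and 2 passed an unadjusted p under 0.05, beside 4.58% of all genes.

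Fluoxetine in WT mice gave like values for the same members, measured against the same 8 vehicle libraries. Fosl2 was at 7.54 to 17.5 TPM (median 12.7) in WT FLX, again below 7 of the 8 WT vehicle libraries, and differed by -0.93 ± 0.27 (limma, unadjusted p = 0.00303, adjusted p = 0.108). Fosb, at 4.26 to 13.8 TPM, was below the same 7 libraries, which started at 14.9 TPM, and differed by -0.86 ± 0.36 (limma, unadjusted p = 0.0284, adjusted p = 0.236). Fos differed by -0.23 ± 0.40, Jun by -0.23 ± 0.25 and Fosl1 by -0.27 ± 0.13, none with an unadjusted p under 0.05. The count was 0 of 6 members called by limma (0.335% of all 23557 genes), with 2 at an unadjusted p under 0.05 (16.8% of all genes). The call turned on 1 library: without WT vehicle replicate 3, Fosb was at -1.17 ± 0.22 and Fosl2 at -1.12 ± 0.22, and both were called (limma, adjusted p = 0.0482 each). Fos was then at -0.61 and Jun at -0.42 (adjusted p = 0.204 and 0.256). Oligodendrocyte markers had a median sum of 6125 TPM in WT FLX and 2066 TPM in WT vehicle, with 8 of 8 higher, and markers of hypothalamus and thalamus 275 and 99.2 TPM, with 7 of 7 higher. The latter were not among the covariates, and their part was not tested. With the striatal, oligodendrocyte and choroid plexus scores as covariates Fosl2 was at -0.84 and Fosb at -0.82 (limma, adjusted p = 0.687 and 0.849), and after imipramine Fosl2 was at -0.76 and Fosb at -0.31 (adjusted p = 0.850 and 0.981).

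In Brd1+/- mice neither drug moved a member past the spread. Leaving Junb aside, the log2 differences after IMN ran from -0.05 for Fosl2 to 0.31 for Fosl1, and Fos was at 0.08 ± 0.53. After FLX they ran from -0.07 for Jund to 0.57 for Fosb, whose standard error was 0.48. Limma called 0 of 7 members in either comparison, where it called 0.776% and 0.731% of all genes, and 0 passed an unadjusted p under 0.05, where 9.3% and 6.94% of all genes did. With terms for low and high sample codes, separate for vehicle and drug mice, Fos was at -0.59 after IMN and -0.09 after FLX. Such terms leave only the libraries of high code in each group to set the difference. These values therefore rest on part of the libraries and do not settle a direction. Between FLX and IMN, Fos was higher by 0.66 ± 0.36 in WT (limma, unadjusted p = 0.0889, adjusted p = 0.858), and by 0.20 without the libraries rich in striatal markers. The other members but Junb differed by at most 0.25 in WT and 0.38 in Brd1+/- mice. By limma 0 of 6 members in WT and 0 of 7 in Brd1+/- were called, with 0% of all genes in either, and 0 members passed an unadjusted p under 0.05, where 4.78% and 2.99% of genes did.

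The drug-by-genotype interaction asks whether the drug's difference was itself different in Brd1+/- mice. For Fosl2 it was 1.13 ± 0.40 with IMN (limma, unadjusted p = 0.00836, adjusted p = 0.354) and 1.07 ± 0.45 with FLX (unadjusted p = 0.0227, adjusted p = 0.212). For Fosb it was 1.12 ± 0.54 with IMN and 1.43 ± 0.62 with FLX (limma, adjusted p = 0.540 and 0.230). Fosl1 had 0.51 ± 0.22 with IMN (limma, unadjusted p = 0.0259, adjusted p = 0.480). A positive value means that Brd1+/- drug libraries stood higher, relative to their vehicle, than WT drug libraries did to theirs, and both interactions use the same 16 vehicle libraries. Fos had 0.97 ± 0.75 with IMN and 0.52 ± 0.69 with FLX, and Jund stayed near 0, at 0.07 ± 0.16 and -0.06 ± 0.12, the latter turning to 0.04 after median-ratio scaling. Limma called 0 of 7 members with IMN (0.536% of all 26673 genes) and 0 of 7 with FLX (1.71% of 26657), and 3 members passed an unadjusted p under 0.05 in each (9.24% and 16.8% of all genes). The third member with FLX was Junb, whose value rests on libraries listed at 0. Oligodendrocyte markers moved the other way in both interactions, with 8 of 8 lower and a median of -1.95 with IMN and -2.01 with FLX, and with FLX so did 7 of 7 markers of hypothalamus and thalamus (median -2.82). With the marker scores as covariates the IMN values of Fosb and Fosl2 were 0.20 and 0.55, and the FLX values 0.64 and 0.59. Without the 7 libraries rich in striatal markers they were 1.54 and 1.38 with IMN (limma, adjusted p = 0.283 and 0.140), and 1.86 and 1.33 with FLX (adjusted p = 0.0617 and 0.0651).

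Over the 6 groups together, limma's F test called 0 of 7 members, where it called 1.7% of 27944 genes, and 2, Fosl2 and Junb, passed an unadjusted p under 0.05 (11.5% of all genes). For Fosl2, limma's F test gave an adjusted p of 0.214. Its mean was highest in WT vehicle (25.8 ± 12.6 TPM, SD, n = 8) and lowest in WT IMN (10.5 ± 2.93 TPM, SD, n = 8). Without the 7 striatal-rich libraries its adjusted p was 0.0322.

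**Figure D4:**
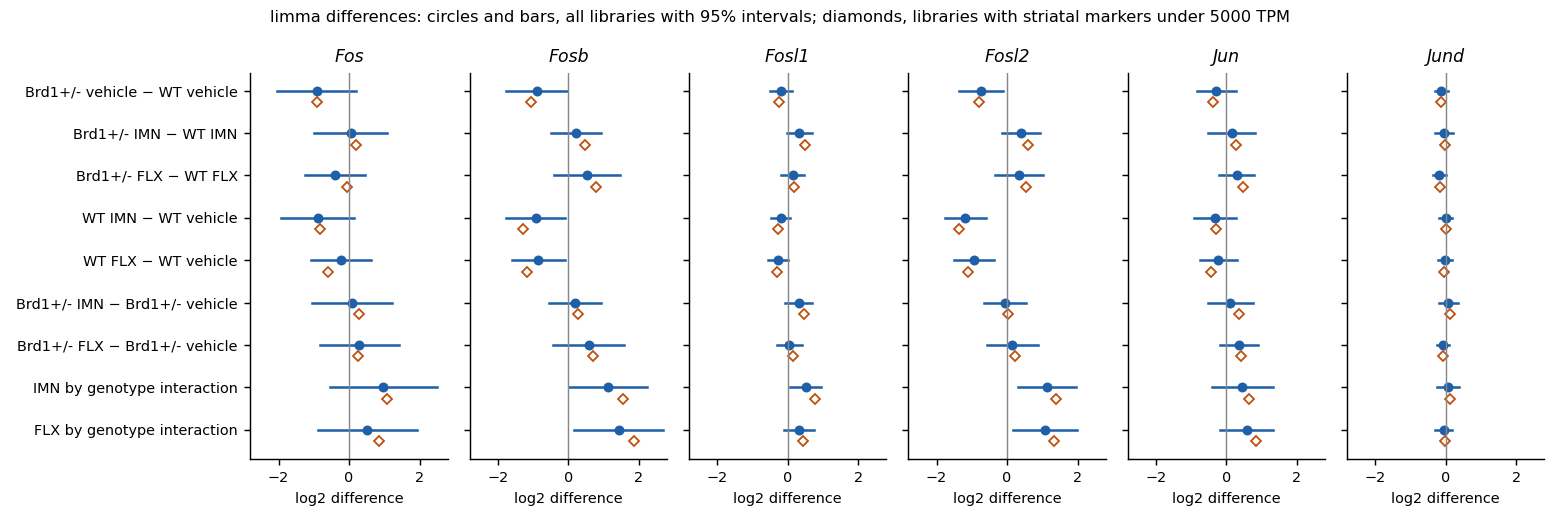
Log2 differences of 6 members by limma in 7 group comparisons and 2 interactions; circles with bars are all libraries with 95% intervals, diamonds the fit without the 7 libraries rich in striatal markers. The Fosl2 and Fosb bars lie below 0 for both drugs in WT mice and for the genotypes under vehicle, and above 0 in both interactions. Every Jund bar is short and near 0, and the one for the genotypes under FLX ends just below 0, at -0.002. The intervals are not adjusted for the number of genes.

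Junb, a Jun protein that can restrain Jun, had no values between 0 and 18.4 TPM. It was listed at 0 in 3 WT vehicle, 2 Brd1+/- vehicle, 5 WT IMN, 4 Brd1+/- IMN, 8 WT FLX and 1 Brd1+/- FLX libraries. The libraries above 0 stood at 64.5 to 107 TPM in WT vehicle (5 libraries), 30.5 to 69.7 in Brd1+/- vehicle (6), 18.4 to 46.3 in WT IMN (3), 46.4 to 68.6 in Brd1+/- IMN (4) and 42.4 to 98.6 in Brd1+/- FLX (7). So the 2 FLX groups were nearly opposite in how often Junb was listed at 0. An exact 0 in such a table can be a failed estimate. Libraries at 0 and above 0 overlapped widely in the other members: Fos was at 2.74 to 56.6 TPM (median 23.8) in the 23 libraries at 0 and at 4.20 to 58.1 TPM (median 33.4) in the other 25, and Fosb had medians of 7.73 and 14.9 TPM. In all, 20 genes, Junb included, with a median of at least 20 TPM where above 0 were listed at 0 in 5 or more libraries. Kctd12, at 0 in 29, and H1fx, in 22, had no value between 0 and 34.3 or 26.0 TPM, a gap like that of Junb. Rims1, a synaptic scaffold, at 0 in 14, and Tuba1c, a tubulin, in 27, had no such gap, with lowest values above 0 of 3.70 and 0.145 TPM. For Junb no fold or mean is therefore given, and it fell below the filter in 4 comparisons. Where it entered one of the 12 comparisons as tested with all libraries and the filter, its adjusted p by limma was 0.0879 or more, and under other settings it was as low as 0.010.

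Overlapping genes limit some of the values, since the sources used here do not say whether counting used the strand. Fosl1 shares 1163 exonic bases with Ccdc85b on the opposite strand, which is more abundant (94.2 to 191 TPM) and had r = 0.32 with Fosl1 over the 48 libraries (rho = 0.40, permutation p = 0.0328, adjusted p over 3 such pairs = 0.0492), 0.28 without the 2 farthest libraries. Jun shares 232 exonic bases with its antisense gene Junos (median 2.18 TPM) and Jund 877 with Gm11175 (median 0.580 TPM), both low beside the member. Junb shares 173 exonic bases with Prdx2, whose range was alike in libraries with Junb at 0 (224 to 314 TPM) and above 0 (218 to 329 TPM). Fos, Fosb and Fosl2 overlap no other annotated gene. On GRCm38, Fos lies on chromosome 12 (85473890 to 85477273), Fosb on 7 (19302696 to 19310051), Fosl1 on 19 (5447547 to 5455946), Fosl2 on 5 (32135801 to 32157842), Jun on 4 (95049034 to 95052222), and Junb (84974484 to 84978718) and Jund (70698949 to 70700616) on 8. Jun and Jund are annotated as single exons.

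Around the family, the 13 other AP-1 partners of the ATF, BATF, JDP and MAF families had 0 called in every comparison by limma, as had 12 upstream kinases, 10 feedback genes such as the phosphatase Dusp1, and 10 known AP-1 targets. Not all of these genes passed the filter: 11 to 13 of the partners and 8 or 9 of the targets were tested, depending on the comparison. Beside these counts of 0, the highest counts at an unadjusted p under 0.05 were 3 AP-1 partners and 5 kinases between the genotypes under FLX (16.6% of all genes), 3 AP-1 partners over the 6 groups (11.5%), 4 feedback genes in the FLX interaction (16.8%) and 2 targets in WT FLX against WT vehicle (16.8%). Of 11 transcription factors that induce the family, 1 was called, Srf in the FLX interaction (0.78 ± 0.20, limma, adjusted p = 0.0401), where 1.71% of all genes were. At an unadjusted p under 0.05 by limma, 4 of the 11 passed in the FLX interaction and in WT FLX against WT vehicle (16.8% of all genes in either). Between the genotypes under FLX 4 passed as well (16.6%). Of the 12 other immediate-early genes 2 were called in WT FLX against WT vehicle, where 0.335% of all genes were: Egr1 fell by 1.15 on the log2 scale and Npas4 by 0.95 (limma, adjusted p = 0.0287 and 0.0429), with 12 of 12 lower and a median of -1.31, against -0.25 for the 6 members tested and 0.05 for all genes. In the FLX interaction Egr2 (2.49), Egr4 (2.28), Npas4 (1.62) and Nr4a1 (1.4997) were called by limma, 4 of 12 where 1.71% of all genes were, and over the 6 groups 1 of 12, Npas4 (adjusted p = 0.0478), where 1.7% of all genes were. With IMN the 12 went the same way, with 0 called. In WT IMN against WT vehicle 11 were lower (median -1.05), 9 at an unadjusted p under 0.05 by limma (4.58% of all genes). In the IMN interaction 12 were higher (median 0.98), 6 at an unadjusted p under 0.05 (9.24% of all genes). In the vehicle comparison of the genotypes the same 12 had 12 lower and a median of -0.85, against 0.03 for all genes, with 0 called by limma (0.708% of all genes) and 6 at an unadjusted p under 0.05 (8.52% of all genes). The members other than Junb ran there from -0.92 for Fos to -0.12 for Jund. These comparisons share the WT vehicle libraries.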

How the data were processed

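RNA from amygdala punches of 48 mice was sequenced with TruSeq libraries. The authors aligned the reads to GRCm38 with HISAT2 2.1.0 and estimated expression with StringTie 1.3.4, and the deposited table holds their TPM values for 52636 genes, without counts, and read depth is therefore unknown and no counting interval is given. Column sums were 999524 to 999772, and 23420 to 27252 genes were above 0. Symbols were matched for 52403 Ensembl identifiers (99.6%). Groups and replicate numbers were taken from the labels.

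Differences were tested with limma 3.58.1 (R 4.3.3) on log2(TPM + 0.1), which understates changes of low genes, with a trended prior, for genes at 0.1 TPM or more in at least 8 libraries of the comparison. P-values were two-sided and Benjamini-Hochberg adjusted over all genes tested. Each comparison used its own groups. Correlations were tested by permutation within groups (100000 resamples, scipy 1.17.1). All members were described, and for likeness the 3 genes with the highest r were named, except 1 for Fos that is not reported here. The limma steps were tested on simulated data. The members and gene lists were chosen with earlier results of these data known. The libraries rich in striatal markers were left out as an alternative chosen after seeing the data. Gene models were GENCODE M21 and promoters RefSeq GRCm38.p6. Protein sequences were not used here.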

Additional observations from a re-analysis of the deposited data

Results flagged for a closer look

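In 36 combinations of a member and a group of 8 libraries, leaving Junb out, 4 had a library far from the others, where chance gives about 1 in 20. Fos stood at 5.79 TPM in WT vehicle replicate 3, where the nearest library was at 26.4 TPM, and Fosb in the same library at 3.54 TPM, with the nearest at 14.9 TPM. Fos stood at 2.74 TPM in Brd1+/- vehicle replicate 1 (nearest 17.5 TPM) and at 4.20 TPM in Brd1+/- FLX replicate 2 (nearest 16.1 TPM). These 3 libraries had striatal marker sums of 8115, 6928 and 7770 TPM and belong to the 7 over 5000 TPM. The part of the striatal markers in these values was not tested.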

How the results depend on the processing

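Of the counts of members called under each alternative, 404 stayed as reported and 7 moved. Without a filter on low values, 1 member (Junb, adjusted p = 0.010 by limma) was called between the genotypes under FLX. With terms for the sample code range, separate for vehicle and drug mice, 1 member (Junb, adjusted p = 0.0178 by limma) was called over the 6 groups. Without the 7 libraries rich in striatal markers, an alternative chosen after seeing the data, 2 members (Fosb and Fosl2) were called in WT FLX and 2 (Fosl2 and Junb) over the 6 groups. Leaving out single libraries gave 0 to 2 in WT FLX, where WT vehicle replicate 3 moved it, and 0 to 1 in the FLX interaction and over the 6 groups, where Brd1+/- FLX replicate 4 did (Junb, adjusted p = 0.0341 and 0.0262). The calls of Junb rest on libraries listed at 0. The correlation of Fos and Fosl1 turned to -0.16 after median-ratio scaling, and that of Fosl1 and Jund to -0.059, and to -0.0037 without the 2 libraries farthest from the median. The cause of these turns was not tested. With the replicate number as a block 0 members were called, and the numbers did not pair the libraries (median correlation of deviations -0.0243 over 120 pairs of the same number, 25 of them over 0.1). Without WT IMN replicate 2, Fos in WT IMN was at -0.58. Depth is unknown from TPM and limits what can be said of low values.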
